A study of Mus musculus with 6 samples.

Results

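Hepatic transcripts of 9 enzymes of the methionine cycle and one-carbon metabolism were examined in mice with diet-induced insulin resistance (IR) that had received insulin or its carrier. The genes were Mat1a, Gnmt, Bhmt, Ahcy, Cbs, Cth, Mthfd1, Shmt1 and Pemt, found by name among the 54532 genes of the count table. All 9 passed the filter on low counts, which kept 13377 genes. Liver RNA was sequenced from 6 male C57BL/6J mice fed a high-fat diet (HFD) for 6 weeks from 8 weeks of age. All were fasted for 16 h before injection. The 3 IR insulin mice received 0.75 units of insulin per kg body weight, the 3 IR vehicle mice received bovine serum albumin (BSA), and livers were taken 6 h later. Both groups shared the strain, the diet and the fast, so the comparison asks how insulin alters these transcripts within insulin-resistant liver, without chow-fed or fed mice as a further control.

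The methionine cycle turns dietary methionine into S-adenosylmethionine (SAM), the methyl donor for most methylation reactions, and the liver is its main site. After SAM has given up its methyl group, the remaining homocysteine is either methylated again to methionine or sent through transsulfuration to cysteine, the precursor of glutathione. Folate enzymes move single-carbon units from serine and glycine into the same network.

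Library totals ran from 18449986 to 21827619 counts, and the 9 genes were counted between 2135 and 216330 times per library, so the spread between mice and not counting error limited their precision. Values are CPM, counts scaled to library size after TMM normalization, and positive log2 fold changes mean a higher level with insulin. The summed level of 8 hepatocyte markers was 57700 to 168000 CPM, so the libraries carried the label's tissue. Muscle markers summed to at most 0.646 CPM, with Acta1, Myh1 and Tnnt3 at 0 in every library. Vehicle libraries stood apart from one another more than insulin libraries did, with correlations of log2 CPM of 0.878 to 0.948 against 0.980 to 0.985. In vehicle replicate 2, levels depended on transcript GC content and fell by 1.13 (log2) for each 10 points of GC, where the other 5 libraries had slopes of −0.06 to 0.19. Values without vehicle replicate 2 or 3 are therefore given beside the main results below.

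No difference between the groups passed the test for any of the 9 transcripts. By edgeR's quasi-likelihood test, 0 of the 9 had an adjusted p under 0.05 (smallest 0.852), as had 0% of all genes tested. The study's criteria, an unadjusted p under 0.05 and a log2 fold change of 0.35 or more in either direction, called 0 of the 9 and 2.86% of all genes. An unadjusted p under 0.05 was reached by 0 members with edgeR, 1 with DESeq2 and 0 with voom. Among all genes it was reached by 383, 507 and 213, in the same order. All 9 had a lower mean with insulin. With library totals as the only scaling 7 did, Bhmt and Mthfd1 being higher, where the median of all genes was 0.16. With an offset for GC content 8 did, Bhmt being higher. The median log2 fold change of the 9 was −0.32 beside −0.02 for all genes tested, but the groups overlapped for each of them. Of all genes 12.3% had groups that did not overlap, 6.04% with insulin lower and 6.25% with insulin higher. Vehicle replicate 3 accounted for most of the lower means. Without it, 4 of the 9 were higher and 5 lower, and the median was −0.01 beside 0.02 for all genes tested. The study's criteria then called 0 of the 9 where they called 6.51% of all genes. Without vehicle replicate 2 instead, 0 of the 9 were higher, and the median was −0.505 beside 0.01 for all genes tested. Values then ran from −1.53 for Cth to −0.02 for Bhmt. Cbs was at −0.83 (unadjusted p 0.0636) and Pemt at −0.51 (unadjusted p 0.0504, edgeR). The study's criteria then called 1 of the 9, Cth, and 3.69% of all genes. In whole liver, fewer cells of a type and less RNA per cell cannot be told apart.

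**Figure D1:**
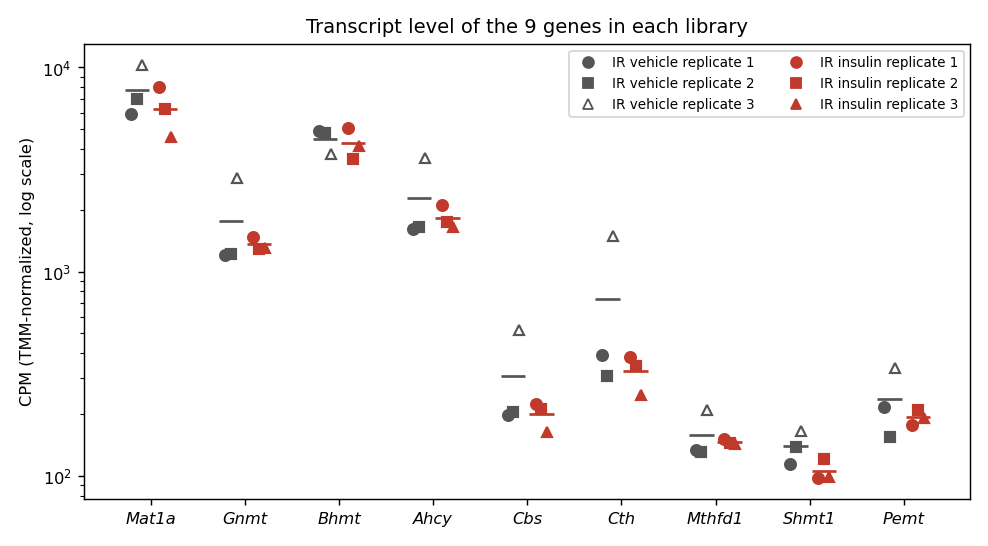
Level of each of the 9 genes (CPM, log axis) in the 3 IR vehicle libraries (grey) and the 3 IR insulin libraries (red), with marker shape for the replicate and a bar for the group mean. Vehicle replicate 3 (open triangle) was the highest library for every gene but Bhmt.

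Mat1a encodes the liver form of methionine adenosyltransferase, which makes SAM (build 38, chromosome 14, 41105035 to 41124412, plus strand, 10 exons in its longest transcript). In replicate order, the vehicle livers held 5914, 7015 and 10320 CPM of it, and the insulin livers 7991, 6282 and 4547 CPM. The groups overlapped, with the highest value in a vehicle liver and the lowest in an insulin liver. Insulin against vehicle gave a log2 fold change of −0.30 ± 0.35 (SE; 95% interval −1.11 to 0.50; edgeR, unadjusted p 0.410, adjusted p 0.856). Without vehicle replicate 3 it was −0.04. Mat2a, the form of the enzyme found in other tissues and in dividing cells, was at 100.2 to 144 CPM in all libraries (log2 fold change −0.09 ± 0.22, unadjusted p 0.699 in edgeR).

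The balance of both forms was read within each library, as Mat1a counts per kb over Mat2a counts per kb, which needs no library scaling. Mat1a exceeded Mat2a by 49.9-, 47.6- and 92.5-fold in vehicle replicates 1, 2 and 3, and by 65.6-, 61.2- and 35.0-fold in insulin replicates 1, 2 and 3. The liver form thus prevailed in all 6 livers, and the ratio was highest in vehicle replicate 3 and lowest in insulin replicate 3. The log2 ratio was 5.92 ± 0.54 with vehicle and 5.70 ± 0.50 with insulin (SD, n = 3; exact two-sided permutation p = 0.6, where the smallest possible p was 0.1). The difference of −0.22 changed sign without vehicle replicate 3 (0.09) or insulin replicate 3 (0.07).

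Gnmt and Pemt encode methyltransferases that consume SAM. Gnmt, glycine N-methyltransferase, disposes of surplus SAM (chromosome 17, 46725664 to 46729168, minus strand, 6 exons). Its vehicle values were 1201, 1219 and 2869 CPM and its insulin values 1485, 1287 and 1310 CPM, in replicate order. The insulin livers lay close together, and vehicle replicate 3 was 1.93-fold above the next highest library. The log2 fold change of Gnmt was −0.37 ± 0.39 (SE; 95% interval −1.26 to 0.52; edgeR, unadjusted p 0.360), and 0.17 (interval −0.37 to 0.70) without vehicle replicate 3. Pemt makes phosphatidylcholine by methylating phosphatidylethanolamine, a route largely particular to liver (chromosome 11, 59970614 to 60046489, minus strand, 7 exons). Vehicle livers held 218.6, 155.6 and 337.2 CPM, and insulin livers 177.5, 211.4 and 193.1 CPM. The 3 insulin values lay within the vehicle range. Pemt had a log2 fold change of −0.29 ± 0.31 (SE; 95% interval −1.0 to 0.42; edgeR, unadjusted p 0.375), and 0.05 without vehicle replicate 3.

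Gnmt (57.5%) and Pemt (54.9%) had the highest transcript GC content of the 9. Vehicle replicate 2 lay below the median of the other libraries for both, at −0.10 and −0.44 on the log2 scale. For Gnmt vehicle replicate 1 lay lower still, at −0.125. The part of GC content in these levels was not tested. With an offset for GC content in the same model, Gnmt had a log2 fold change of −0.79 (unadjusted p 0.0431) and Pemt of −0.55 (unadjusted p 0.0329), each with an adjusted p of 0.932 in edgeR. These 2 of the 9 genes then met the study's criteria, as did 3.53% of all genes. With the replicate block added to the offset 0 of the 9 met them (Gnmt −0.71, unadjusted p 0.0943, and Pemt −0.54, unadjusted p 0.0597, in edgeR).

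Ahcy encodes S-adenosylhomocysteine hydrolase, which splits the product of every SAM-dependent methylation into homocysteine and adenosine (chromosome 2, 155059310 to 155074497, minus strand, 10 exons). Vehicle values were 1626, 1658 and 3622 CPM, and insulin values 2128, 1751 and 1647 CPM. Apart from vehicle replicate 3, the libraries of both groups shared the range of 1626 to 2128 CPM. Ahcy had a log2 fold change of −0.32 ± 0.37 (SE; 95% interval −1.19 to 0.54; edgeR, unadjusted p 0.415), and 0.17 without vehicle replicate 3.

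Bhmt methylates homocysteine back to methionine with betaine as donor (chromosome 13, 93616675 to 93637961, minus strand, 4 exons in its longest transcript). It was the exception among the 9. It was at 4876, 4797 and 3758 CPM in the vehicle livers and at 5052, 3567 and 4135 CPM in the insulin livers, so that vehicle replicate 3 was the lowest vehicle library and insulin replicate 1 the highest of all 6. The log2 fold change of Bhmt was −0.07 ± 0.28 (SE; 95% interval −0.73 to 0.58; edgeR, unadjusted p 0.798). Its sign was positive with library totals as the only scaling (0.10), where the median of all genes was 0.16. It was also positive with the GC offset (0.10), which took the GC content of the longest transcript. The paralog Bhmt2 had 3593 to 4801 counts and the pseudogene Bhmt-ps1 108 to 192, against at least 78149 for Bhmt, and reads shared with these copies may have been divided among them.

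Cbs and Cth encode the enzymes of transsulfuration. Cbs joins homocysteine to serine to form cystathionine (chromosome 17, 31608894 to 31637238, minus strand, 17 exons). The vehicle livers held 198.1, 204.7 and 520.1 CPM of Cbs, and the insulin livers 225.8, 212 and 163.9 CPM. Vehicle replicate 3 was 2.3-fold above the next highest library, and the other 5 lay between 163.9 and 225.8 CPM. The log2 fold change of Cbs was −0.62 ± 0.41 (SE; 95% interval −1.55 to 0.32; edgeR, unadjusted p 0.167, adjusted p 0.852), and −0.01 without vehicle replicate 3.

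Cth, cystathionine gamma-lyase, releases cysteine from cystathionine (chromosome 3, 157894248 to 157925077, minus strand, 12 exons). It showed the widest spread of the 9 genes. Its vehicle values were 392.3, 307.4 and 1498 CPM and its insulin values 383.4, 347.2 and 248.3 CPM. Vehicle replicate 3 was 3.82-fold above the next highest library, which was vehicle replicate 1. The means were 732.6 ± 664.3 CPM with vehicle and 326.3 ± 70 CPM with insulin (SD, n = 3). Cth had a log2 fold change of −1.17 ± 0.59 (SE; 95% interval −2.52 to 0.19; edgeR, unadjusted p 0.0821, adjusted p 0.852). By DESeq2 the unadjusted p was 0.0400 (adjusted p 0.911). Without vehicle replicate 2 the log2 fold change was −1.53 (unadjusted p 0.0192, adjusted p 0.891), and Cth was then the 1 member called at the study's criteria, as were 3.69% of all genes. Without vehicle replicate 3 it was −0.10 (interval −0.74 to 0.54; unadjusted p 0.721).

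**Figure D2:**
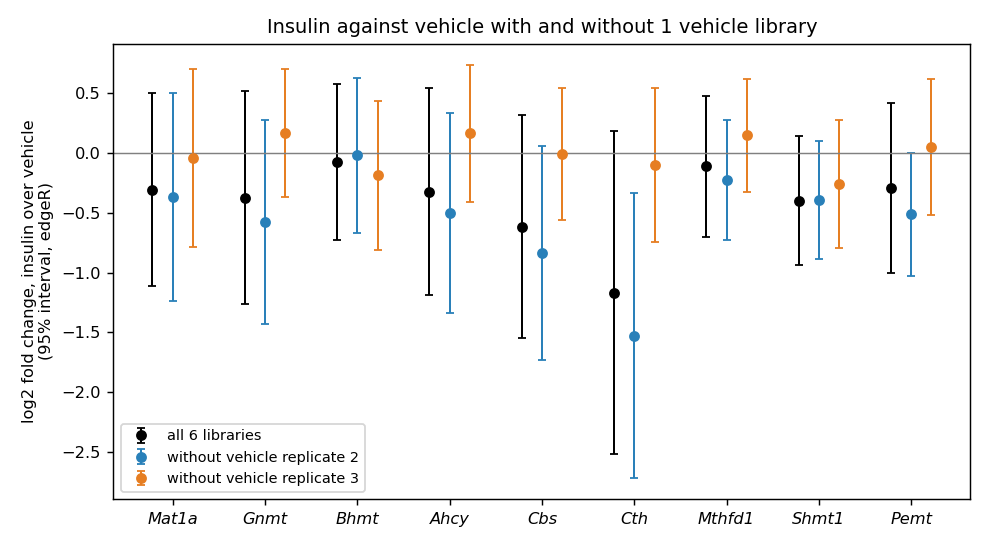
Log2 fold change of each gene, insulin over vehicle, with its 95% interval by edgeR, from all 6 libraries (black), without vehicle replicate 2 (blue) and without vehicle replicate 3 (orange). The interval of Cth without vehicle replicate 2 (−2.72 to −0.33) was the only one of those drawn to leave out 0, and without vehicle replicate 3 all 9 values lay between −0.26 and 0.17.

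Mthfd1 and Shmt1 encode cytosolic folate enzymes. Mthfd1 carries 3 activities that interconvert folate-bound carbon units (chromosome 12, 76255298 to 76319803, plus strand, 28 exons). Its vehicle libraries were at 133.5, 131.1 and 211.1 CPM, its insulin libraries at 151.2, 145.4 and 143.7 CPM. All insulin values lay above vehicle replicates 1 and 2 and below vehicle replicate 3. The log2 fold change of Mthfd1 was −0.11 ± 0.26 (SE; 95% interval −0.70 to 0.48; edgeR, unadjusted p 0.675). It was 0.15 without vehicle replicate 3 and 0.06 with library totals as the only scaling, where the median of all genes was 0.16. Shmt1 transfers a carbon unit from serine to folate and leaves glycine (chromosome 11, 60788104 to 60811718, minus strand, 12 exons). It reached 113.9, 139.1 and 165.4 CPM in vehicle livers, against 97.4, 121.7 and 98.7 CPM in insulin livers. Vehicle replicate 1 lay below insulin replicate 2, so the groups overlapped. The log2 fold change of Shmt1 was −0.40 ± 0.24 (SE; 95% interval −0.94 to 0.15; edgeR, unadjusted p 0.131) and kept its sign without vehicle replicate 3 (−0.26). Shmt1 overlaps Smcr8 on the opposite strand, which had 377 to 725 counts where Shmt1 had at least 2140, and reads of both genes may be mixed where counting ignored strand, which is not stated.

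Per kb of the longest annotated transcript, the insulin livers held 1810 ± 497 CPM per kb of Mat1a, 1310 ± 105 of Gnmt, 1070 ± 189 of Bhmt and 724 ± 99.5 of Ahcy (SD, n = 3). Pemt (193 ± 16.9) and Cth (180 ± 38.6) followed, and Mthfd1 (45.3 ± 1.22), Shmt1 (37.1 ± 4.79) and Cbs (32.2 ± 5.22) were lowest on this scale. Mat1a and Gnmt, Gnmt and Bhmt, Pemt and Cth, and Shmt1 and Cbs each differed by less than the sum of their SDs. In the vehicle livers Cth stood above Pemt, at 404 ± 366 against 236 ± 91.9 CPM per kb, through vehicle replicate 3. Cbs has 12 annotated transcripts, the longest of 6226 bases, and a shorter form would raise its level per kb. The same holds for the others, among them Bhmt, with 2 annotated transcripts, the longest of 3963 bases in 4 exons.

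Of the 9 genes 8 varied together across the 6 libraries, largely through 1 library. Vehicle replicate 3 was the highest library for 8 of the 9, Bhmt being the exception, whereas it was the highest for 23.4% of all genes tested. It was so for 8 of 9 also with library totals (20.0% of all genes) and with median-of-ratios factors (23.9%). Its log2 difference from the median of the other 5 libraries was 2.11 for Cth, 1.34 for Cbs, 1.16 for Gnmt and 1.13 for Ahcy, and these 4 were at least 2-fold higher there, as were 4.75% of all genes. It was 0.80 for Pemt, 0.72 for Mat1a, 0.55 for Mthfd1, 0.54 for Shmt1 and −0.35 for Bhmt. Vehicle replicate 2 was the lowest library for 2 of the 9, Mthfd1 and Pemt, and for 37.4% of all genes. This reading of the libraries was chosen after the values were seen, and it describes 1 library from 1 mouse. The mouse and its library preparation cannot be told apart.

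**Figure D3:**
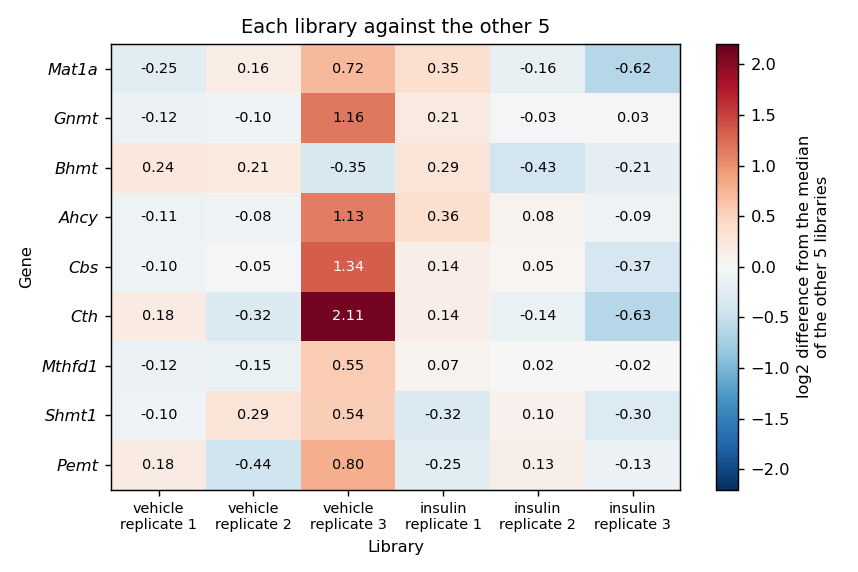
Log2 difference of each of the 6 libraries (columns) from the median of the other 5, for each of the 9 genes (rows), with the value printed in each cell. Vehicle replicate 3 held positive values for 8 genes, up to 2.11 for Cth, and no other library exceeded 0.36 in any gene.

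Over the 6 libraries, Pearson's r of log2 CPM ran from 0.511 to 0.99 for the 28 pairs among the 8 genes other than Bhmt (median 0.845), and without vehicle replicate 3 the same pairs ran from −0.73 to 0.948 with a median of 0.212. Cbs and Cth, which act in succession, correlated at 0.987 over 6 libraries and at 0.821 over the other 5. Over those 5, Mat1a with Cbs (0.948), Gnmt with Ahcy (0.926) and Gnmt with Mthfd1 (0.896) correlated more highly. Bhmt correlated with the others at −0.597 to −0.067, and at −0.445 to 0.465 without vehicle replicate 3. The points are libraries that share the departures of vehicle replicates 2 and 3, so these values are descriptive.

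Other transcripts set vehicle replicate 3 apart in the same samples. The summed level of 10 periportal hepatocyte markers was 23700 CPM there and 9230 to 11800 CPM in the other 5 libraries, and 9 of the 10 were highest there. The pericentral markers summed to 13800 CPM, within the 11300 to 20800 CPM of the others. Endothelial markers summed to 304 CPM against 163 to 190 CPM. Neutrophil markers summed to 3.77 CPM against 27.5 to 72.9 CPM, with 3 of 8 past the filter on low counts. Adipocyte markers summed to 0.191 CPM against 25 to 154 CPM, with 1 of 5 past that filter. Kupffer cell (390 CPM), stellate cell (298 CPM), cholangiocyte (21.6 CPM), B cell (6.25 CPM) and erythroid (413 CPM) markers lay within the range of the other libraries. Exocrine pancreas markers summed to 14.5 CPM against 14.6 to 18.3 CPM, with 5 of 6 at 0 in every library. The part of any of these in the levels of the 9 genes was not tested.

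RefSeq promoter windows (GRCm38.p6) were found for 7 of the 9 genes, and the 250 bases upstream of the start site are shown for the genes at least 2-fold higher in vehicle replicate 3 that had a window (Ahcy, Cbs and Gnmt) and for Bhmt, which was not. The positions were chr2:155074498-155074747 for Ahcy, chr17:31637206-31637455 for Cbs, chr17:46729166-46729415 for Gnmt and chr13:93637759-93638008 for Bhmt, all on the minus strand and written 5′ to 3′. The start sites are those of RefSeq. The GENCODE gene spans given above reach into the windows of Cbs and Gnmt and over most of that of Bhmt. Capitals mark matches, on either strand, to the E-box CACGTG bound by USF factors and to the GC box GGGCGG.
Ahcy: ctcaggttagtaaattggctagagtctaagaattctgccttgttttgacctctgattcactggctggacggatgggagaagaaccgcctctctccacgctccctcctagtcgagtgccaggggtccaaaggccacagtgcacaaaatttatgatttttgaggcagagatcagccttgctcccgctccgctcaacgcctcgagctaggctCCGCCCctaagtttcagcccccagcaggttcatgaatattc
Cbs: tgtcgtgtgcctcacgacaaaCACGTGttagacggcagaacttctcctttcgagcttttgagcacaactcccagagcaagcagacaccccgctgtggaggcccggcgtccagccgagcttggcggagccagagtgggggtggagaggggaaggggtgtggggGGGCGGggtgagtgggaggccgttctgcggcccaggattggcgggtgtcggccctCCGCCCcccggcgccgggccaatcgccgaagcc
Gnmt: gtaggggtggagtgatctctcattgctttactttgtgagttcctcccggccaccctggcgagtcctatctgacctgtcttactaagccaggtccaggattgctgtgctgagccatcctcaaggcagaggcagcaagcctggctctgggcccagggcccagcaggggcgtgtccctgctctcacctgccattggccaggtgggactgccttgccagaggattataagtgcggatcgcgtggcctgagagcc
Bhmt: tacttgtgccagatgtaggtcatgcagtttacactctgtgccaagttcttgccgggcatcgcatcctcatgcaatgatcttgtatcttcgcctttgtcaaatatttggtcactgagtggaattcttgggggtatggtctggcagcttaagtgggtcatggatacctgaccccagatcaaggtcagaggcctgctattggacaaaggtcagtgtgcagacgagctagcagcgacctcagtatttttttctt
The E-box was found in Cbs alone among the 8 member windows and in 6.02% of all 32851 windows. The GC box was found in Ahcy, Cbs, Mthfd1 and Shmt1, and in 32.7% of all windows. The forkhead-type letters GTAAACA (3.17% of all windows) and the TATA box TATAAA (12.4%) were in none of the member windows. These motifs did not overlap one another in the windows shown, and a match describes letters only.

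The wider network gave few calls. Of 76 further genes in 6 lists, 72 were tested, and at the study's criteria 1 was higher with insulin (1% of all genes tested) and 1 lower (1.86%). By edgeR 0 had an adjusted p under 0.05, and 2 had an unadjusted p under 0.05. The gene called lower was Ggh, gamma-glutamyl hydrolase, which trims folate polyglutamates. Vehicle livers held 11.1, 28.4 and 17.1 CPM of it and insulin livers 11.4, 10.5 and 8.63 CPM, with overlap between vehicle replicate 1 and insulin replicate 1. Its log2 fold change was −0.89 ± 0.35 (SE; edgeR, unadjusted p 0.0364, adjusted p 0.852), and −0.47 without vehicle replicate 2, its highest library, where the call was lost (unadjusted p 0.0864). It was lost in 8 of 15 alternatives, among them voom (−0.31), library totals, the replicate block and each insulin library left out. The gene called higher was Smox, spermine oxidase, at 6.61, 2.58 and 3.20 CPM in vehicle livers and 7.56, 6.75 and 9.18 CPM in insulin livers. Its groups did not overlap, although vehicle replicate 1 and insulin replicate 2 nearly met. Its log2 fold change was 0.92 ± 0.39 (SE; edgeR, unadjusted p 0.0479, adjusted p 0.852). That call too was lost in 8 of 15 alternatives, among them voom (0.50), the GC offset (0.68), vehicle replicate 2 (0.68) or 3 (0.76) left out and each insulin library left out.

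In the list of methionine cycle and SAM use, 5 of 14 genes were higher and 9 lower with insulin (median log2 fold change −0.12), and 0 were called. Without vehicle replicate 3, 8 of 14 were higher, with a median of 0.01 beside 0.02 for all genes tested. With library totals as the only scaling the median was 0.06, below the 0.16 of all genes. The smallest p values belonged to Tpmt, thiopurine methyltransferase (−0.39 ± 0.21), Mtrr, which reactivates methionine synthase (0.42 ± 0.26), and Mmachc, which processes cobalamin (−0.34 ± 0.21; SE, edgeR, unadjusted p 0.102, 0.151 and 0.151). The groups did not overlap for these 3 of the 14 genes, a state that 12.3% of all genes shared. Nnmt, Inmt and As3mt, other SAM-dependent methyltransferases, were highest in vehicle replicate 3, by 0.58, 0.93 and 0.91 on the log2 scale over the median of the other libraries.

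In the folate list, 8 of 19 genes tested were higher and 11 lower (median −0.20), whereas without vehicle replicate 3, 12 were higher (median 0.16). With library totals the median was −0.05, beside 0.16 for all genes. Besides Ggh, the smallest p values belonged to Gcsh, a subunit of the mitochondrial glycine cleavage system (−0.45 ± 0.21, unadjusted p 0.0658), and Mthfs (−0.63 ± 0.31, unadjusted p 0.0778; SE, edgeR). Of the 72 wider genes tested, 3 (4.17%) were at least 2-fold higher in vehicle replicate 3, all in this list, a share near the 4.75% of all genes. Ftcd, which breaks down histidine by way of folate, reached 493 CPM there but 190.6 to 260.7 CPM in the other 5 libraries. Gldc, the decarboxylase of glycine cleavage, reached 149.9 CPM there but 36.5 to 72.8 CPM in the others, and Mthfd1l at 3.34 CPM against 0.996 to 2.40 CPM. Mthfd2, the mitochondrial folate enzyme best known from dividing cells, went the other way, at 0.668 CPM in vehicle replicate 3 and 2.79 to 15.4 CPM elsewhere. These genes were picked for vehicle replicate 3 after their values were seen.

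In the choline and betaine list, 5 of 13 were higher and 8 lower (median −0.10). Without vehicle replicate 3, 7 were higher and the median was 0.08, beside 0.02 for all genes. With library totals the median was 0.07, beside 0.16 for all genes. The smallest p values were those of Chdh, which makes betaine from choline (0.42 ± 0.22), Etnk1, an ethanolamine kinase (−0.55 ± 0.30), and Cept1, a phospholipid-forming phosphotransferase (−0.52 ± 0.34; SE, edgeR, unadjusted p 0.0998, 0.107 and 0.159). Etnk1 and Cept1 were highest in vehicle replicate 2, and without it they were at −0.24 and −0.17. In the cysteine and sulfur list, 5 of 12 were higher and 7 lower (median −0.09, or 0.08 with library totals, beside 0.16 for all genes). There the smallest p values belonged to Papss2, a synthase of activated sulfate (−0.69 ± 0.31, unadjusted p 0.0544), Sqor, which oxidizes hydrogen sulfide (−0.52 ± 0.26, 0.0777), and Gclm, the modifier subunit of glutamate-cysteine ligase (−0.72 ± 0.38, 0.0926). Gclm was at 383.4 CPM in vehicle replicate 2 and 122.5 to 191.3 CPM elsewhere, and its log2 fold change was −0.20 without that library, −0.42 with the GC offset and −0.99 (unadjusted p 0.0270, edgeR) without vehicle replicate 1. In the list of methionine salvage and polyamines, 3 of 12 were higher and 9 lower (median −0.08), whereas without vehicle replicate 2, 7 were higher (median 0.06). With library totals the median was 0.11, beside 0.16 for all genes. After Smox came Srm, spermidine synthase (0.59 ± 0.30, unadjusted p 0.0856), which was −0.11 with the GC offset, and Adi1 of the salvage pathway (−0.49 ± 0.26, unadjusted p 0.0988), which was −0.22 without vehicle replicate 2. Of the serine synthesis genes, Phgdh did not pass the filter, and Psat1 (0.90 ± 0.76) and Psph (−0.24 ± 0.32) had unadjusted p values of 0.275 and 0.478 in edgeR. Psat1 was at 6.69 CPM in insulin replicate 3 and 0.899 to 3.07 CPM elsewhere, and its log2 fold change was −0.27 without that library.

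**Figure D4:**
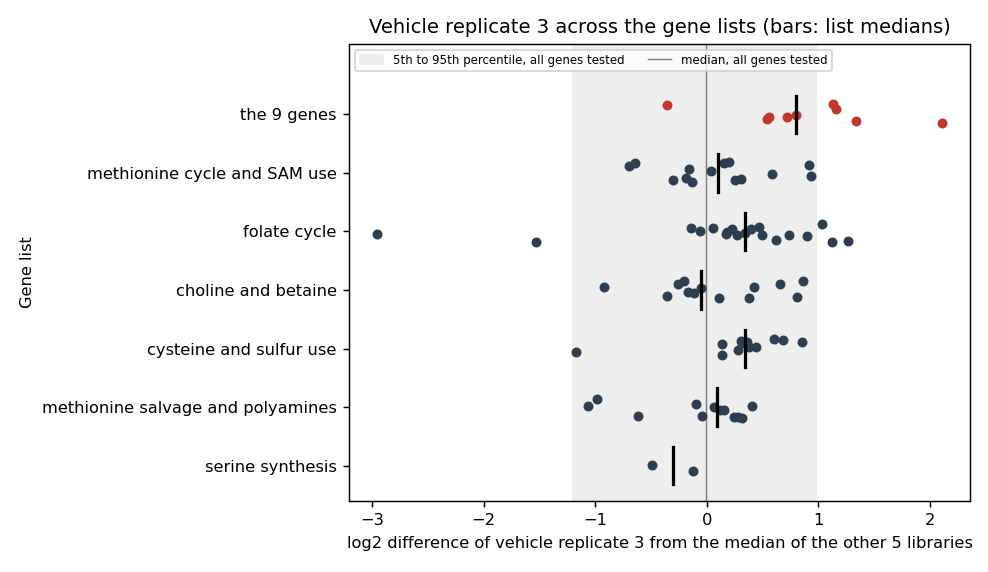
Level of vehicle replicate 3 minus the other libraries' median (log2 scale), for the 9 genes (red) and for each tested gene of the 6 wider lists (dark), with list medians as bars and the 5th to 95th percentile of all genes tested (−1.2 to 0.98) shaded. The 9 genes had a median of 0.80, the folate and cysteine lists 0.34 each, and all genes tested about 0.

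Among the genes outside these lists whose profile over the 6 libraries was most like the mean profile of the 9 were Cyp2d22, Frmd4b, Kxd1 and Sdhd, with Pearson's r of 0.994, 0.993, 0.991 and 0.991 among 10523 genes averaging 50 counts or more. Each was highest in vehicle replicate 3. Cyp2d22, a cytochrome P450, was at 228.6 CPM there and 123.8 to 151.1 CPM elsewhere, and Sdhd, a membrane subunit of succinate dehydrogenase, at 296.1 CPM there and 144.5 to 176.2 CPM elsewhere. Without that library their r was 0.878 to 0.941. With 6 points and 1 library far from the rest, a high r is readily reached.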

How the data were processed

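Liver RNA from 3 IR vehicle and 3 IR insulin mice, 1 library each, was analysed. The authors used the NEBNext Ultra RNA kit and an Illumina HiSeq, and aligned reads to mouse build 38 (mm10) by Bowtie 2 (version 2.2.3 in the submitters' processing notes). The deposited values are raw counts of reads per gene, neither normalized nor pooled. The counting program, annotation release and strand setting are not given in the sources used here, and reads that span exon junctions can be lost where alignment is not spliced. Groups and replicate numbers came from the sample titles, and all sample columns were used. Whether the mice of a group shared a cage, day or lane is not stated.

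Counts were fitted by edgeR 4.0.16 (R 4.3.3; filterByExpr with a minimum count of 10 and a total of 15, TMM, quasi-likelihood F test without covariates), with Benjamini-Hochberg adjustment over 13377 genes. SEs were derived from the F statistic and 95% intervals from the moderated degrees of freedom. The study's criteria were applied to this fit, since its own tool, DESeq2 (here 1.42.0), was run as an alternative. Coordinates, transcript length and GC content came from GENCODE M21 (build 38), which held 54409 of the 54532 gene identifiers. The GC offset was a loess curve (span 0.5) of log2 deviations on GC content per library, available for 13367 genes. The ratio of Mat1a to Mat2a was tested by an exact permutation test in scipy 1.17.1. Other alternatives were RLE, upper-quartile and total-count scaling, no filter, voom with quality weights (limma 3.58.1), replicate blocks and leaving out each library. The fits were run on simulated counts with known changes, drawn at a lower dispersion than that of the data. They held no outlying library and no dependence on GC content. That run therefore does not show how the fits behave at the spread seen here.

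The 9 genes and the gene lists were chosen with earlier results of these data known. Named are the 9, the 3 smallest p values of each wider list and every listed gene past the study's criteria, Mat2a, and the 5 genes most like the mean profile of the 9, of which 1 is not reported here. Others were named after their values were seen. Motifs were searched in the 250 upstream bases of each 300-base RefSeq promoter window. Without molecular identifiers, counts are not counts of independent molecules.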

Additional observations from a re-analysis of the deposited data

How the results depend on the processing

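No alternative gave any of the 9 genes an adjusted p under 0.05 (range 0.506 to 1.0 over 15 alternatives), and of 135 values for single members 121 kept their direction and side of the study's criteria. The number of members past the criteria was 0 in the edgeR fit of all 6 libraries, beside 383 of all genes. It was 1 with no filter (742 of all genes, with more genes tested), 1 by DESeq2 (507) and 2 with the GC offset (472). When 1 library was left out it was 0 to 1, the 1 being Cth without vehicle replicate 2 (508 of all genes). The number of wider genes past the criteria, 2, was 1 with library totals (341 of all genes), 4 with no filter (742) and 4 by DESeq2 (507). It was 0 with voom (213 of all genes), 1 with the replicate block (321) and 0 with the replicate block and GC offset (335). When 1 library was left out it was 0 to 12. It was 12 without vehicle replicate 1, where 1349 of all genes were called, and 4 without vehicle replicate 3, where 888 were. Without any single insulin library it was 0, where 99 to 143 of all genes were called. Over all genes the count of 383 became 742 with no filter, 507 by DESeq2, 472 with the GC offset and 213 with voom. When 1 library was left out, it ran from 99 (without insulin replicate 1) to 1349 (without vehicle replicate 1). It was 888 without vehicle replicate 3, and 143 and 120 without insulin replicates 2 and 3. The median of the members was −0.52 to −0.01 when 1 library was left out, −0.16 with library totals, where the median of all genes was 0.16, −0.24 with the replicate block, −0.12 with voom and −0.46 with the GC offset. Cth moved to −0.61 with voom and −0.60 with the replicate block and GC offset. Signs changed for Bhmt with library totals (0.10), the GC offset (0.10) and the replicate block and GC offset (0.10), for Mthfd1 with library totals (0.0586), for Mat2a with library totals (0.10), the GC offset (0.10) and the replicate block and GC offset (0.10), and for Srm with the GC offset (−0.11). When 1 library was left out, the ranges were −0.58 to 0.17 for Gnmt, −0.21 to 0.0386 for Bhmt, −0.52 to 0.17 for Ahcy, −0.23 to 0.15 for Mthfd1, −0.51 to 0.0516 for Pemt, −0.17 to 0.0434 for Mat2a, −0.27 to 1.62 for Psat1 and −0.39 to 0.0923 for the log2 ratio of Mat1a to Mat2a, whose mean paired difference (replicate block) was −0.22. The cause was not tested. Same-numbered libraries did not deviate together (correlations of −0.039, 0.069 and 0.017 for replicates 1, 2 and 3), so the numbers were not taken as pairs, and the replicate block alone changed no call of a member. Added to the GC offset, the block took away both calls made with that offset, leaving 0 (unadjusted p 0.0943 for Gnmt and 0.0597 for Pemt, edgeR). With 3 mice per group and vehicle replicates 2 and 3 apart from the rest, the interval of Cth, the widest of the 9, held changes from −2.52 to 0.19.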
